A study of Rattus norvegicus with 24 samples.

Results

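Glutathione genes were examined in the left kidney of PKD/Mhm (Cy/+) rats, whose kidneys become cystic because of an amino acid change in Anks6. Genes were taken by symbol. They cover the alpha, kappa, mu, omega, pi, theta and zeta glutathione transferases, the microsomal transferases (Mgst), the peroxidases (Gpx), the gamma-glutamyltransferases (Ggt), the synthesis genes Gclc, Gclm and Gss, the reductase Gsr, and the aminopeptidases Anpep and Lap3. A gene needed at least 10 counts in at least 6 samples. Of 17334 genes in the files, 46 matched by name and 41 reached that minimum. Gsta4l1, Gstm6, Gstm6l, Gpx6 and Gstt4 did not. All 41 also passed the low-count filter of the test, which kept 12778 genes.

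The 24 animals were male, 8 months old and of the same strain, with 6 in each of 4 groups. The control group (Ctrl) was untreated. The CoCM group received conditioned medium from a co-culture. In it ABCB5+ stromal cells of human skin grew with macrophages made from THP-1 cells, stimulated with interferon gamma and lipopolysaccharide. The other groups received the cells themselves, into the peritoneum (i.p. ABCB5+) or into a vein (i.v. ABCB5+). Treatment was given monthly for 6 months, and sources differ on the route by which the medium was given. Every group carried the Cy mutation, so no healthy kidney serves as a reference. Controls had animal numbers from 1 to 24 and treated animals from 26 to 43, so the order of the animals and treatment cannot be told apart.

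Glutathione is a tripeptide of glutamate, cysteine and glycine. Glutamate-cysteine ligase joins glutamate to cysteine and is made of a catalytic subunit, Gclc, and a modifier subunit, Gclm. Glutathione synthetase, Gss, then adds glycine. Transferases couple glutathione to reactive compounds, peroxidases use it to reduce peroxides, and Gsr restores the oxidized form. In the kidney, filtered and secreted glutathione is taken apart at the brush border of the proximal tubule. There Ggt1 removes the glutamyl residue and Anpep helps to split the remaining dipeptide. The proximal tubule consists of a convoluted part (S1 and S2) and a straight part (S3), and its cells also make the secreted peroxidase Gpx3.

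Animals 39 of CoCM, 38 of i.p. ABCB5+, and 36 and 37 of i.v. ABCB5+ stood apart from the other 20. In this order Spp1, a marker of injured tubules, was 370.1, 425.8, 640.5 and 669.5 CPM (counts scaled to library size), against 6596 to 13000 CPM in the others. Havcr1, which encodes kidney injury molecule 1, was between 4.19 and 17.5 CPM in these 4 animals and between 57.2 and 272.6 CPM in the others. Summed leukocyte markers reached down to 779.4 CPM in CoCM, 1337 CPM in i.p. ABCB5+ and 1578 CPM in i.v. ABCB5+, where the lowest control had 3211 CPM. Group comparisons and spreads are therefore given with and without these animals, and correlations only without them. Total counts ranged from 9304630 to 14125457 per library, and 3 counts corresponded to 0.322 CPM in the smallest. The kidney itself was recognisable in every group, with summed proximal tubule markers between 3358 and 25770 CPM. Adrenal marker sums did not exceed 8.33 CPM, and hepatocyte marker sums did not exceed 18.1 CPM. Adipocyte markers summed to 505.0 CPM in CoCM animal 34 and to between 24.3 and 144.7 CPM elsewhere. Red blood cell markers summed to 10360 CPM in control 1 and to between 284.3 and 3387 CPM elsewhere.

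Levels between genes were compared in TPM, which scale counts by transcript length and library size. Gpx3 was the most abundant gene of the set at 9081 ± 4280 TPM (SD, n = 24). Gpx1, the cytosolic selenium peroxidase, followed at 1528 ± 277 TPM and Gclc at 1113 ± 1193 TPM. Those spreads, which are between animals, overlap, and the order of Gpx1 and Gclc within animals was not tested. Gsta2 (1033 ± 866 TPM), Ggt1 (890.2 ± 629.8 TPM), Gstp1 (793 ± 158 TPM), Gpx4 (766 ± 102 TPM) and Gstt3 (636 ± 290 TPM) came next, again with overlapping spreads. Of the other families, Mgst3 had 457.5 ± 128.1 TPM, Gstm2 340.4 ± 70.9 TPM, Gsto1 207.7 ± 55.9 TPM, Gstk1 86.4 ± 25.4 TPM and Gstz1 77.3 ± 36.7 TPM. Gsr stood at 142.6 ± 23.3 TPM and Lap3 at 106.1 ± 24.8 TPM. The lowest members were Gsto2, Gstp3, Ggt7 and Gstm3, at 3.21, 2.59, 2.46 and 1.93 TPM. Several families share sequence. Estimated counts were fractional, and reads thus shared with other transcripts, in all 24 samples for Gsta1, Gsta3 and Gstt2, and in at least 1 sample for 11 further members. These were Gsta2, Gsta4, Gsta5, all Gstm genes, Gpx4 and Gstz1. The levels of these 14 genes are uncertain to that extent, whereas 27 members, among them Gclc, Gclm, Gss, Ggt1 and Anpep, had whole counts throughout.

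The catalytic subunit of the first synthesis step differed more between animals of a group than between groups. In Ctrl, Gclc was 137.3 CPM in animal 1, 111.3 in animal 12, 1544 in animal 18, 879.7 in animal 22, 238.0 in animal 23 and 4288 in animal 24. The highest control thus exceeded the lowest 38.5-fold. In CoCM its lowest, median and highest values were 161.4, 2529 and 6403 CPM, in i.p. ABCB5+ 282.1, 2263 and 4029 CPM, and in i.v. ABCB5+ 524.8, 1666 and 11220 CPM. All groups overlapped, and low and high animals occurred in each of them. Over all 24 animals the range was 100.8-fold.

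The modifier subunit and the second enzyme of synthesis had the same kind of spread. Gclm had lowest, median and highest values of 114.6, 189.0 and 821.4 CPM in Ctrl, 106.1, 504.9 and 1010 CPM in CoCM, 167.8, 382.4 and 690.7 CPM in i.p. ABCB5+ and 170.0, 346.6 and 1486 CPM in i.v. ABCB5+. Gss had 69.9, 112.6 and 335.1 CPM in Ctrl, 91.2, 240.3 and 498.1 CPM in CoCM, 89.2, 262.0 and 320.4 CPM in i.p. ABCB5+ and 119.7, 190.7 and 1043 CPM in i.v. ABCB5+. For both genes the groups overlapped. Of the brush-border enzymes, Ggt1 ran from 174.5 to 1236 CPM in Ctrl, 246.0 to 1815 CPM in CoCM, 333.9 to 1276 CPM in i.p. ABCB5+ and 458.7 to 3363 CPM in i.v. ABCB5+. Anpep ran from 135.6 to 1029, 194.2 to 1611, 233.9 to 1162 and 336.7 to 2757 CPM in the same order. By contrast Gsr, which recycles glutathione rather than making it, stayed within 133.3 to 214.7 CPM in Ctrl and 133.3 to 288.3 CPM over all animals.

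**Figure D1:**
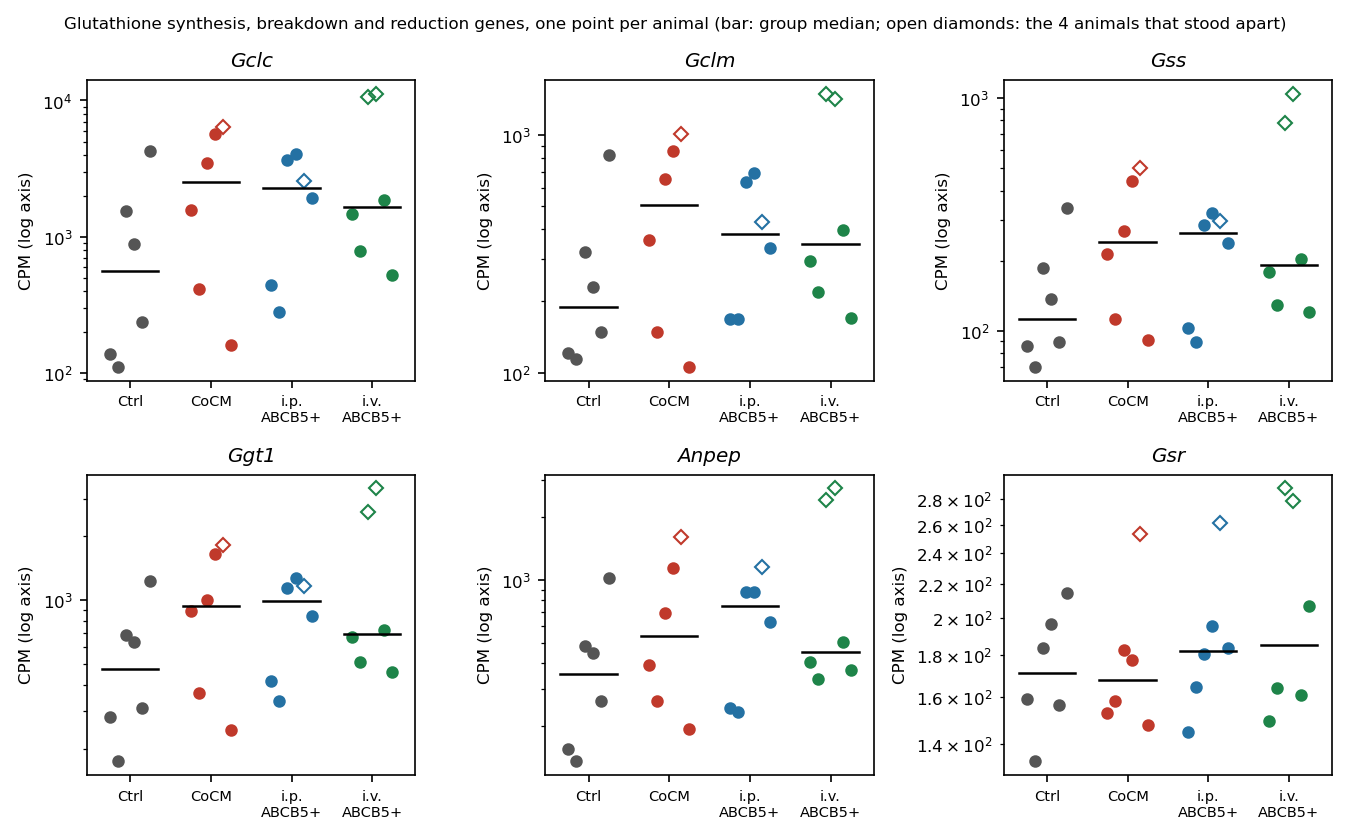
Levels of 6 genes of glutathione synthesis (Gclc, Gclm, Gss), breakdown (Ggt1, Anpep) and reduction (Gsr) in CPM on log axes, by group, with 1 point per animal, a bar at the group median and open diamonds for the 4 animals that stood apart. Gclc spans 111.3 to 11220 CPM and Gsr 133.3 to 288.3 CPM, and the groups overlap for every gene.

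Of the transferases, the most abundant member of each class is described here. Gsta2, an alpha transferase, had lowest, median and highest values of 60.3, 284.3 and 645.1 CPM in Ctrl, 155.5, 396.6 and 1416 CPM in CoCM, 167.1, 493.3 and 1006 CPM in i.p. ABCB5+, and 244.4, 358.7 and 1953 CPM in i.v. ABCB5+. Gstt3, a theta transferase, had 331.4, 619.8 and 1057 CPM in Ctrl, 459.7, 746.3 and 1436 CPM in CoCM, 431.0, 799.6 and 1107 CPM in i.p. ABCB5+, and 525.1, 728.5 and 2123 CPM in i.v. ABCB5+. Both overlapped between all groups, and in every treated group their highest values were those of animals that stood apart. Gstz1, which also acts in tyrosine breakdown, had a median of 63.0 CPM in Ctrl and medians between 74.6 and 89.6 CPM in the treated groups, within a range of 42.1 to 258.2 CPM. Gstk1, the kappa transferase of mitochondria and peroxisomes, ran from 28.3 to 102.5 CPM.

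Gstp1, the pi transferase with the highest level, had lowest, median and highest values of 217.7, 310.0 and 356.9 CPM in Ctrl, 329.1, 355.7 and 465.4 CPM in CoCM, 270.9, 336.3 and 407.2 CPM in i.p. ABCB5+, and 239.7, 343.6 and 671.6 CPM in i.v. ABCB5+. Gstm2 had medians between 108.6 and 120.9 CPM in the 4 groups and reached 225.3 CPM in i.p. ABCB5+ animal 38. Gsto1 had medians between 97.5 and 106.6 CPM and a range of 69.7 to 214.5 CPM. Mgst3, a membrane-bound transferase with peroxidase activity, had medians between 117.1 and 131.0 CPM and a range of 85.6 to 288.9 CPM. The highest Gsto1 and Mgst3 level of each treated group came from an animal that stood apart, and the groups overlapped for all of these genes.

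Spread was summarised as the SD of log2 CPM within groups, pooled over the 4 groups. It was largest for Gsta5 at 2.37, the 14th highest of 12778 genes, and for Gclc at 1.95, the 43rd highest. Gsta5, an alpha transferase, was listed at or near 0 in 4 animals and reached 22.7 CPM. Gsta2 (1.26), Anpep (1.19), Gclm (1.19) and Gpx2 (1.13) completed the 6 most variable members, and Mgst2, Ggt1 and Gss also exceeded 1. Gpx2 fell to 0.26 and Mgst2 to 0.52 without the 4 animals that stood apart, while Gsta5 was at 2.32 and Gclc at 1.85. The steadiest was the mu transferase Gstm4 at 0.12, with values from 29.8 to 38.9 CPM. The median SD was 0.50 over the 41 genes and 0.30 over all genes tested. Without the 4 animals these medians were 0.40 and 0.23, and on log2(TPM + 1) with all animals they were 0.43 and 0.28. On the first of these scales, 36 members lay above the median of all genes.

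To see which genes varied together, log2 CPM of each gene was correlated with that of Gclc over the 20 animals that did not stand apart, with 100000 permutations per gene and adjustment over 12777 genes for each coefficient. Of the other 40 members, 21 (52.5%) were positively correlated with Gclc at an adjusted p under 0.05 for Pearson's r, where 12.8% of all genes were. For negative correlations the numbers were 2 members (5.0%) and 7.80% of all genes. A Pearson r above 0.8 was found for 13 members (32.5%) and for 4.3% of all genes. The synthesis and brush-border genes led the list. Ggt1, which opens glutathione breakdown, had r = 0.987 and Spearman's rho = 0.992, Gss r = 0.978 and rho = 0.992, Gclm r = 0.972 and rho = 0.985, and Anpep r = 0.972 and rho = 0.976. All of these had a permutation p of 1e-05 for both coefficients, the smallest that could be reached, with an adjusted p of 0.000297 for r and 0.000274 for rho. Leaving out the animals farthest from the median Gclc level, controls 1 and 12, gave r = 0.988, 0.979, 0.977 and 0.959 for these genes. After subtraction of group means r was 0.987, 0.983, 0.977 and 0.974, and within the 6 controls alone 0.982, 0.983, 0.97 and 0.987. Gclc was only weakly related to sequencing depth (r = -0.191 with log2 total count).

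Among transferases, the alpha, theta, kappa, zeta and microsomal families each held members that followed Gclc closely. Pearson's r was 0.892 for Gsta4, 0.890 for Gsta2, 0.881 for Gstz1, 0.873 for Gstt2, 0.871 for Mgst1, 0.856 for Gstt3, 0.840 for Gstk1 and 0.828 for Gsta3. The aminopeptidase Lap3, which splits the cysteinylglycine dipeptide in the cytosol, had r = 0.897. Gpx4, which reduces lipid peroxides in membranes, was the peroxidase closest to Gclc at r = 0.784, with rho = 0.776, a permutation p of 6e-05 and 7e-05 and an adjusted p of 0.00113 and 0.00129. Gsta5, Gstt1, Gstm7, Gstp1, Gsta1, Gsr and Gsto1 were also correlated, with r from 0.772 down to 0.607. The 2 genes with a negative correlation past the threshold were Ggt7 (r = -0.632, adjusted p 0.0238 by permutation; rho = -0.648) and Gpx7 (r = -0.583, adjusted p 0.038 by permutation; rho = -0.595). For Gpx7, r was -0.41 without controls 1 and 12. Gstm5 (r = 0.562) and Ggt5 (r = -0.555) passed by rho and not by r, with an adjusted p of 0.0402 and 0.0295 for rho by permutation. Gpx1, Gpx2, Gpx3, Gpx5, Gsta6, Gstm2, Gstm3, Gsto2 and Ggt6 had r between -0.135 and 0.151.

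Slc7a13, an amino acid transporter of S3, had the highest coefficient with Gclc of all genes at r = 0.997 and rho = 0.985 (permutation p of 1e-05, adjusted p 0.000297 and 0.000274). It ranged from 5.97 CPM in control 12 to 1330 CPM in CoCM animal 35 among these 20 animals. Hnmt, Slco1a3, Aadat, Slco1a6 and Slc22a22 came next with r from 0.996 to 0.995. A list of 7 S3 markers was drawn up after these values had been seen, so their coefficients are a description and no independent evidence. They ran from 0.894 for Slc5a1 to 0.997 for Slc7a13, with Slc38a3, Slc3a1, Slc22a2, Kap and Slc6a18 in between. Of 8 markers of the convoluted part, chosen at the same time, r lay between -0.544 for Slc5a2 and 0.445 for Slc7a9, and none passed the threshold by r, although Slc5a2 did by rho (adjusted p 0.045 by permutation). Within the 6 controls alone r was positive for all 8, from 0.054 for Slc5a2 to 0.834 for Slc22a8, and 0.933 to 0.997 for the S3 markers. Thick ascending limb genes also followed Gclc, with r = 0.899 for Umod, 0.894 for Slc12a1, 0.933 for Cldn10 and 0.813 for Cldn16, but 0.389 for Kcnj1. The injury markers Havcr1 (r = 0.067) and Spp1 (r = -0.134) were not correlated past the threshold, nor was Nfe2l2, which encodes Nrf2 (r = -0.428, adjusted p 0.167 by permutation). In whole kidney tissue, fewer S3 cells and less RNA per cell cannot be told apart. Summed S3 markers had lowest, median and highest values of 344.8, 1385 and 6099 CPM in Ctrl, 527.3, 4141 and 11590 CPM in CoCM, 748.8, 4716 and 6273 CPM in i.p. ABCB5+, and 1523, 2797 and 20380 CPM in i.v. ABCB5+. Their part in the comparisons between groups was not tested.

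Gpx3 was not correlated with Gclc past the threshold (r = -0.078, rho = 0.002, permutation p of 0.744 and 0.997, adjusted p 0.859 and 0.999). Within the 6 controls alone Gpx3 had r = 0.694 with Gclc, 0.748 with Ggt1, 0.912 with Gstk1 and 0.922 with Gpx4. The coefficients were thus higher among the untreated kidneys than over all 20 animals, a difference that was not tested. Over the same 20 animals Ctsb, which encodes a lysosomal protease, had the highest coefficient with Gpx3 at r = 0.964 and rho = 0.967 (permutation p of 1e-05, adjusted p 0.00256 and 0.00639). Ctsa and Phgdh came next at r = 0.949. The 8 markers of the convoluted part lay between 0.35 for Slc2a2 and 0.882 for Slc22a8, and the 7 S3 markers between -0.204 and 0.017. Within the controls alone these ranges were -0.072 to 0.948 and 0.52 to 0.782. Only 2 members were positively correlated with Gpx3 past the threshold (5.0%, where 1.74% of all genes were). These were Gpx1 (r = 0.762, rho = 0.798, adjusted p 0.00946 and 0.016 by permutation) and the microsomal transferase Mgst3 (r = 0.704, rho = 0.657, adjusted p 0.0303 and 0.0746). Gpx5 was the 1 member with a negative correlation (2.50%, where 1.10% of all genes were), at r = -0.666 and rho = -0.636 with an adjusted p of 0.0467 and 0.0968 by permutation. Leaving out control 22 and i.v. ABCB5+ animal 43 gave r = 0.714 for Gpx1, 0.599 for Mgst3 and -0.545 for Gpx5. Gpx3 had r = 0.462 with log2 total count, and the part of depth in these coefficients was not tested.

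**Figure D2:**
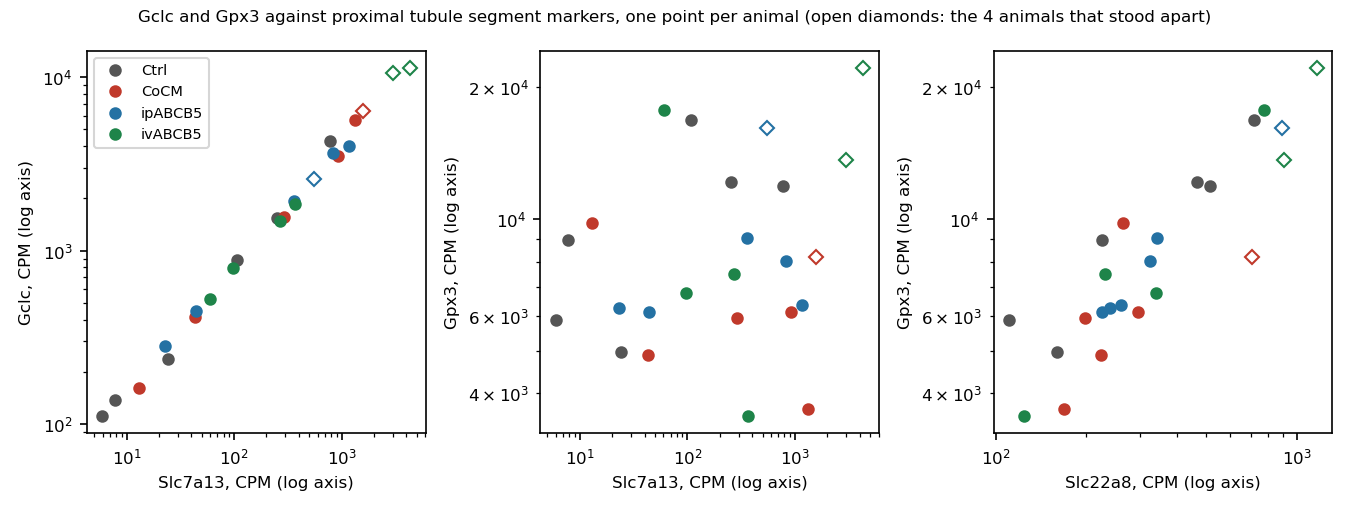
Gclc against the S3 marker Slc7a13, Gpx3 against Slc7a13, and Gpx3 against the convoluted tubule marker Slc22a8, in CPM on log axes, with 1 point per animal, coloured by group, and open diamonds for the 4 animals that stood apart. Gclc lies close to a line with Slc7a13 (r = 0.997 over 20 animals). For Gpx3, r was 0.882 with Slc22a8 and -0.098 with Slc7a13, which was 0.669 within the controls alone.

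**Figure D3:**
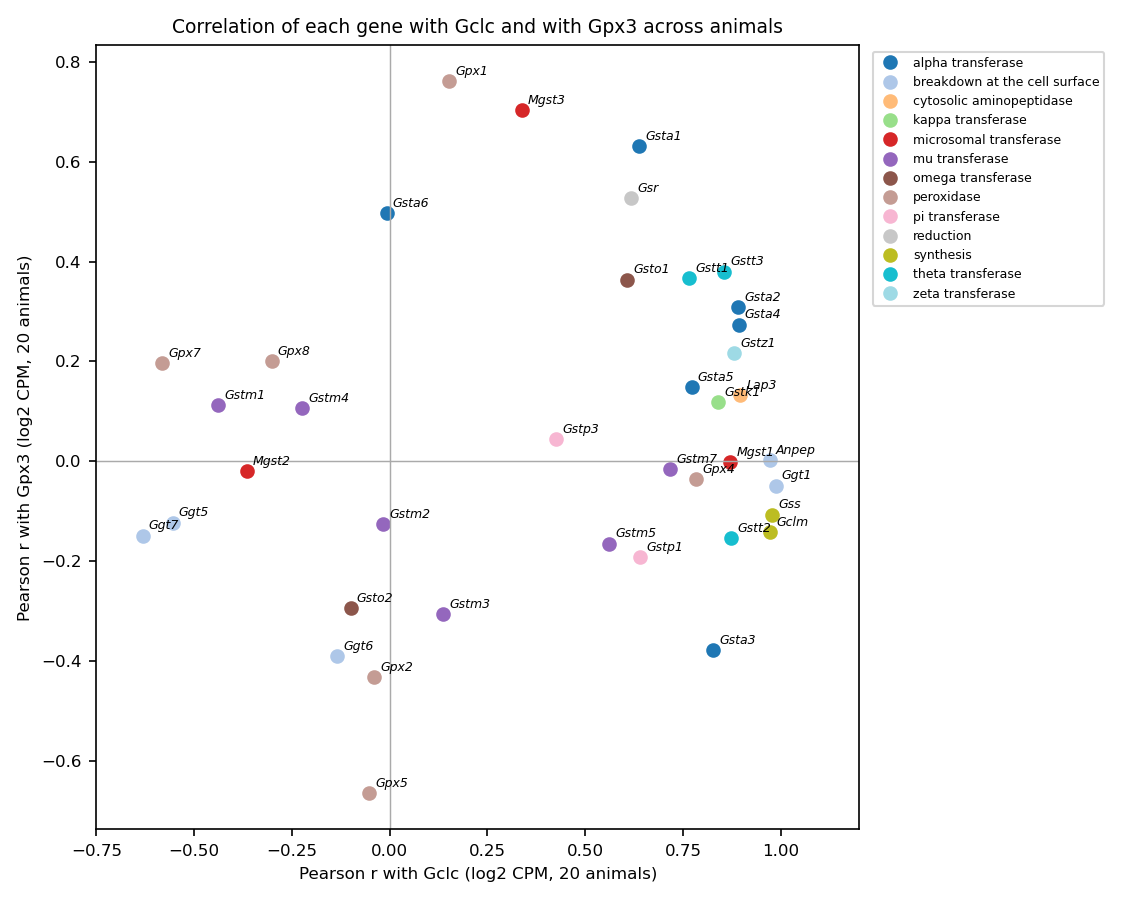
Pearson's r of each of 39 members with Gclc (horizontal) and with Gpx3 (vertical), from log2 CPM of 20 animals, coloured by role. Ggt1, Gss, Gclm and Anpep lie at the right edge near 0 on the vertical axis, and Gpx1 and Mgst3 at the top left of them.

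Promoter sequences were compared with the core of the antioxidant response element, which Nrf2 binds together with small Maf proteins and which is known for glutathione genes. Windows from 250 bases before the start site to the start were taken from RefSeq (assembly GRCr8), and 35 of the 41 genes had one. The letters TGACNNNGC were searched on both strands. They occurred in 7 of the 35 windows (20%) and in 10.2% of 27457 rat promoters. These were the promoters of Gclm, Gpx2, Gsta3, Gstm5, Gstm7, Gstp1 and Gstz1. The AP-1 letters TGAGTCA or TGACTCA, which can overlap the element, were in 2 windows (5.7%, against 3.98% of all), of Gstm5 and Gstp1, and overlapped the element in Gstp1. The motif of HNF1, a proximal tubule factor, was in none of the 35 and in 0.12% of all. Stretches around the match are shown for 5 of the 7 genes. Those of Gstm7 and Gstp1 overlapped the annotated span of the gene and were left out. Gclm, Gsta3, Gstz1, Gstm7 and Gstp1 were correlated with Gclc by both coefficients, Gstm5 by rho alone and Gpx2 by neither. Capitals mark the match.
Gclm, chr2:213031943-213031991, plus strand: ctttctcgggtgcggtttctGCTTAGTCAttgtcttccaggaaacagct
Gsta3, chr9:31154952-31154988, plus strand: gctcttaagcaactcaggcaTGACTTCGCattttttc
Gstz1, chr6:112525356-112525403, plus strand: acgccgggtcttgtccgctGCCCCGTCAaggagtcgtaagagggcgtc
Gpx2, chr6:101230034-101230066, minus strand: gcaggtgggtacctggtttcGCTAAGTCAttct
Gstm5, chr2:198219636-198219744, plus strand: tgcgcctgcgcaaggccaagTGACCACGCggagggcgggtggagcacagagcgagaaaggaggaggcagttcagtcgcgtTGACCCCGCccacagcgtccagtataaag

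The letters were not found for Gclc in the 250 bases searched, and sequence farther upstream was not examined for any gene.

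The peroxidases differed among themselves in how they varied. Gpx3 had lowest, median and highest values of 4969, 10460 and 16860 CPM in Ctrl, 3691, 6045 and 9796 CPM in CoCM, 6142, 7197 and 16150 CPM in i.p. ABCB5+, and 3552, 10580 and 22110 CPM in i.v. ABCB5+. Gpx1 ran from 552.1 to 1435 CPM and Gpx4 from 286.1 to 667.4 CPM over all animals. Gpx2, known as the gastrointestinal peroxidase, was steady in the controls, where it ran from 35.3 to 68.2 CPM. In the animals that stood apart (39, 38, 36 and 37) it was 7.74, 5.21, 9.50 and 7.53 CPM, while no other animal was under 35.3 CPM. Mgst2, a microsomal transferase that can make leukotriene C4, was likewise at 0.455, 0.485, 0.380 and 0.279 CPM in these animals and at 2.13 CPM or more in every other. Gpx8, an endoplasmic reticulum peroxidase, was at 24.1, 25.7, 14.7 and 22.7 CPM in the same animals and at 33.7 CPM or more elsewhere. Gstm7 was at 68.6, 80.0, 76.6 and 75.5 CPM in them and did not exceed 39.5 CPM in the others. Further members were also higher in each of these animals than in any other. Among them were Gsta2 (at least 1006 CPM, against at most 645.1 CPM), Gpx1 (at least 1001 CPM, against at most 948.4 CPM), Gsta4, Gsto1, Gstk1, Mgst3, Gsr and Anpep. The share of all genes set apart in this way was not counted. The animals had been set apart on injury markers, not on the genes described here, and the part of injured cells in these levels was not tested.

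**Figure D4:**
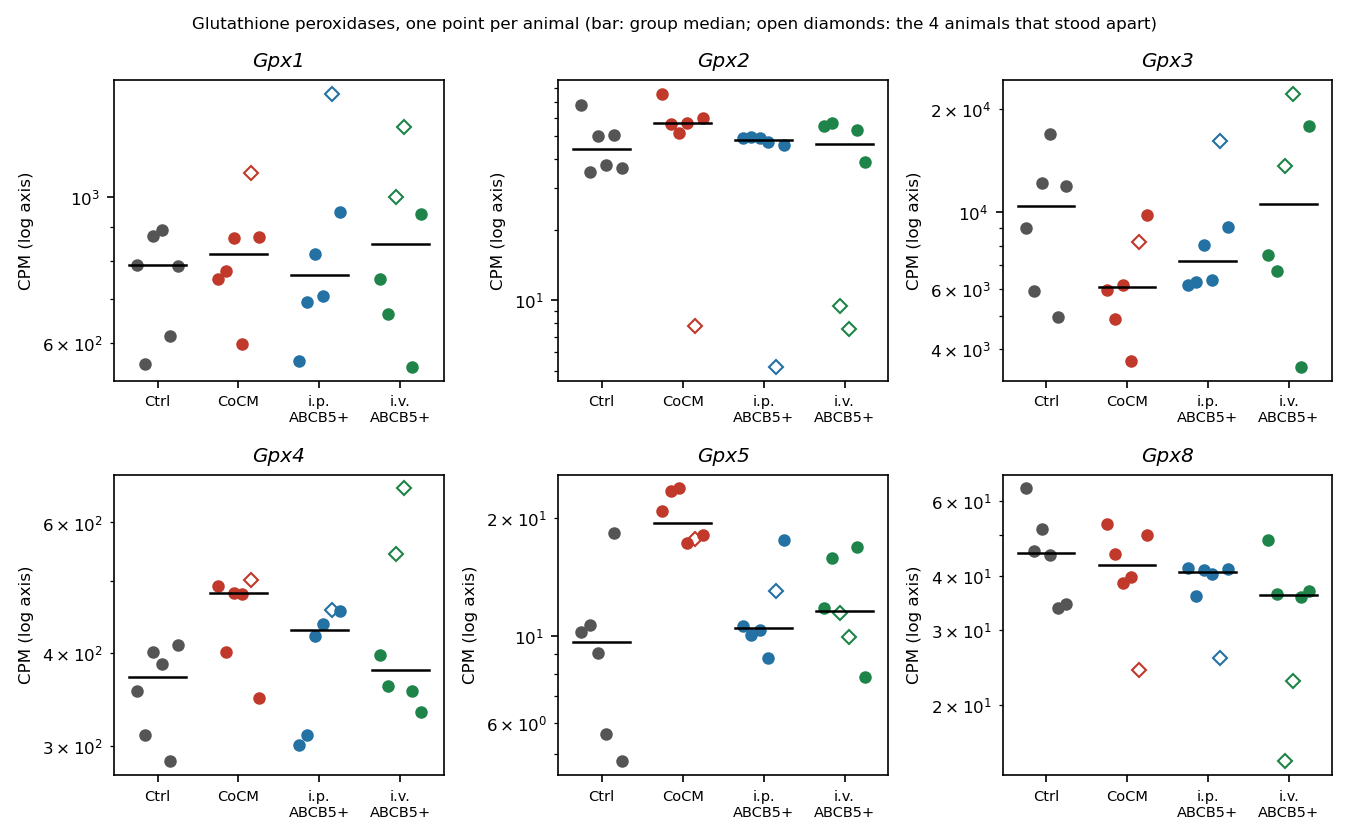
Levels of 6 glutathione peroxidases in CPM on log axes, by group, with 1 point per animal, a bar at the group median and open diamonds for the 4 animals that stood apart. Gpx5 lies between 17.2 and 23.8 CPM in CoCM and between 4.78 and 18.3 CPM in Ctrl, and Gpx2 is under 10 CPM in the open diamonds alone.

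The first comparison asked whether conditioned medium changed these genes. No member passed an adjusted p of 0.05 in edgeR's quasi-likelihood test of CoCM against Ctrl, where 0.00783% of all genes did. At an unadjusted p under 0.05 there were 2 members (4.88%), against 11.9% of all genes. Both were higher, where 5.96% of all genes were higher and 5.96% lower. No member had ranges apart between the groups, where 0.853% of all genes had higher and 0.524% lower ranges. The smallest p belonged to Gpx5, a peroxidase related to Gpx3 that lacks selenocysteine and is best known from the epididymis. Gpx5 was 20.8, 23.4, 23.8, 17.2, 17.6 and 18 CPM in CoCM animals 26, 27, 34, 35, 39 and 40. In controls 1, 12, 18, 22, 23 and 24 it was 10.2, 10.6, 9.04, 5.62, 18.3 and 4.78 CPM. Control 23 lay within the CoCM range and the other 5 controls lay below it. The log2 fold change was 1.05 ± 0.25 (SE), with an adjusted p of 0.202 in edgeR. All 6 of 6 CoCM animals were above the control mean. Adjusted p was 0.0236 with DESeq2, 0.00973 with voom and quality weights, 0.0178 in edgeR without control 23, and 0.207 in edgeR without the 4 animals, in a range from 0.00973 to 0.555 over all alternatives. The 3 alternatives in which Gpx5 passed the threshold called 78, 183 and 31 genes in all.

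Of the other members named for this comparison, Gsta3, an alpha transferase, was higher in CoCM by a log2 fold change of 0.70 ± 0.34 (adjusted p 0.42 in edgeR). Gstt2, a theta transferase, was higher by 0.54 ± 0.26 (adjusted p 0.419 in edgeR) and was the other member under the unadjusted threshold. Gclc, Gclm and Gss had log2 fold changes of 1.30 ± 0.99, 0.83 ± 0.64 and 0.84 ± 0.57, with adjusted p from 0.515 to 0.559 in edgeR. Gpx3 was at -0.65 ± 0.39, Gpx7 at -0.29 ± 0.27 and Mgst2 at -0.32 ± 0.54, with adjusted p of 0.477, 0.618 and 0.787 in edgeR. In the same comparison 5 of the 8 convoluted tubule markers were lower at an unadjusted p under 0.05 (median -0.76, and 4 of 8 without the 4 animals), as were 3 of 6 endothelial markers (median -0.39), none of them past adjustment. Their part in the Gpx3 difference was not tested. Gsr was at 0.04 ± 0.18 and changed sign without the 4 animals (-0.10). Of the 41 genes 36 had a positive fold change, with a median of 0.29, where 51.4% of all genes did, with a median of 0.01. Without the 4 animals the median of the 41 genes was 0.14 and 5 members had an unadjusted p under 0.05, where 16.9% of all genes did.

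The next comparisons concerned the cells. In i.p. ABCB5+ against Ctrl edgeR called 0 of the 41 genes and 0 of 12778 at an adjusted p of 0.05, and DESeq2 and voom also called none. At an unadjusted p under 0.05 there was 1 member (2.44%), against 1.77% of all genes (1.26% higher and 0.509% lower). No member had ranges apart, as did 0 genes in the higher and 0.0470% in the lower direction. The member was Gsta3, with lowest, median and highest values of 9.14, 21.7 and 31.1 CPM in i.p. ABCB5+ and 7.42, 10.9 and 18.4 CPM in Ctrl. Its groups overlapped, and the log2 fold change was 0.77 ± 0.34 (adjusted p 0.978 in edgeR), with 4 of 6 animals above the control mean. Gstm3 followed at 0.68 ± 0.35, although none of its animals exceeded 1.48 CPM, and Gsta5 at 1.97 ± 1.1. Mgst2, Gpx8 and Gpx7 were at -0.85 ± 0.55, -0.28 ± 0.23 and -0.23 ± 0.27, and Gclc, Gclm, Gss and Gsr at 0.84 ± 0.98, 0.47 ± 0.64, 0.56 ± 0.56 and 0.11 ± 0.18. All of these had an adjusted p of 0.978 in edgeR. Without the 4 animals no member had an unadjusted p under 0.05, where 1.39% of all genes did. The median over the 41 genes was 0.19, and 0.07 without them.

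In i.v. ABCB5+ against Ctrl edgeR called 0 members and 0 genes at an adjusted p of 0.05, DESeq2 called 0 members and 1 gene, and voom called none. More members than in the other comparisons had an unadjusted p under 0.05, namely 8 (19.5%), against 5.78% of all genes. Of these 7 were higher, where 4.44% of all genes were, and 1 was lower, where 1.34% were. No member had ranges apart, where 0.0548% of all genes did in the higher and 0.0548% in the lower direction. These were Gss (log2 fold change 1.45 ± 0.57), Gstt2 (0.63 ± 0.26), Ggt1 (1.32 ± 0.59), Anpep (1.44 ± 0.66), Gstt1 (0.66 ± 0.31), Gstz1 (0.86 ± 0.40), Gstm7 (0.83 ± 0.40) and, in the other direction, Gpx8 (-0.49 ± 0.23), all with an adjusted p of 0.673 in edgeR. Gclc and Gclm were at 1.88 ± 1.0 and 1.18 ± 0.65, Gsr at 0.26 ± 0.18, and Mgst2 and Gstm1 at -0.93 ± 0.55 and -0.25 ± 0.16. Marker lists moved in the same comparison, none of their genes past adjustment. At an unadjusted p under 0.05, 5 of 6 red blood cell genes were lower (median -2.13), 4 of 9 immediate early genes were higher (median 0.51) and 3 of 7 S3 markers were higher (median 1.5). Without the 4 animals these counts were 1, 3 and 0, and their part in the members' differences was not tested. The count of members rested on animals 36 and 37, since it fell to 0 when either was left out. Without all 4 animals it was 0, against 1.23% of all genes, and the log2 fold changes of Gss, Ggt1, Gclc and Gclm were 0.06, 0.08, -0.05 and -0.12. The median over the 41 genes was 0.32 with these animals and -0.04 without.

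**Figure D5:**
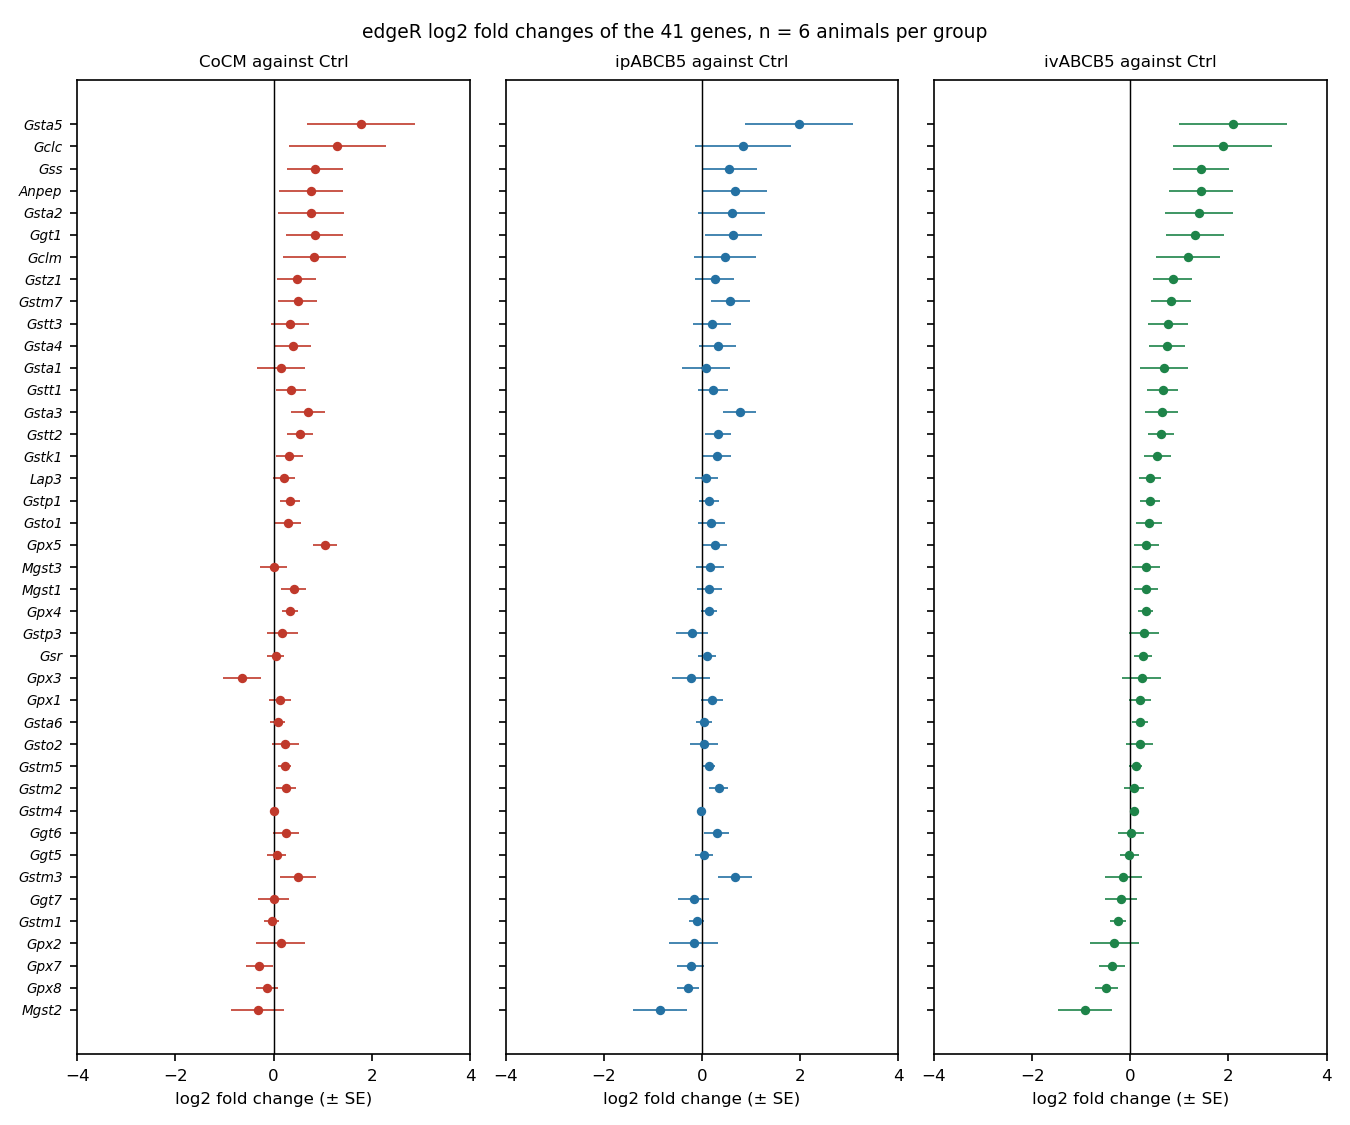
Log2 fold changes of the 41 genes with their standard errors from edgeR, for CoCM and both cell groups against Ctrl (n = 6 animals per group), ordered by the i.v. ABCB5+ comparison. Gsta5 and Gclc have the widest bars, at the top, Gpx5 stands out in CoCM at 1.05, and Mgst2 is lowest in the i.v. ABCB5+ panel at -0.93.

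The route of cell administration was compared directly. In i.p. against i.v. ABCB5+ edgeR called 0 members and 0 genes, and DESeq2 called 0 members and 1 gene. At an unadjusted p under 0.05 there was 1 member (2.44%), against 2.14% of all genes (0.689% higher and 1.46% lower). No member had ranges apart, where 0.0313% of all genes did in the higher and 0.0313% in the lower direction. The member was Gstm3 at 0.82 ± 0.36 (adjusted p 1 in edgeR), whose means were 0.915 and 0.504 CPM. Gss and Gstz1 were at -0.88 ± 0.57 and -0.60 ± 0.40 with all animals and at 0.40 and 0.07 without the 4 animals, so their direction turned. Gstp3 was at -0.49 ± 0.32, Gstm2 at 0.26 ± 0.20 and Ggt6 at 0.29 ± 0.26. In the same comparison 4 of 9 immediate early genes were lower at an unadjusted p under 0.05 (median -0.64), none past adjustment. Their part in the members' differences was not tested. When CoCM was set against the mean of both cell groups, edgeR again called 0 members and 0 genes, while DESeq2 called 3 genes, voom 2, and neither a member. No member had ranges apart, where 0.0391% of all genes were higher and 0 lower. Gpx5 was the 1 member with an unadjusted p under 0.05 (2.44%), against 7.0% of all genes, 3.21% higher and 3.79% lower. Its log2 fold change was 0.75 ± 0.21, with an adjusted p of 0.688 in edgeR and of 0.332 without the 4 animals. Its level was 8.78 to 17.6 CPM in i.p. ABCB5+ and 7.86 to 16.9 CPM in i.v. ABCB5+, and only 1 animal, number 41 of i.p. ABCB5+, reached into the CoCM range. Gpx3 was at -0.66 ± 0.35 (adjusted p 0.695 in edgeR), and Gpx8, Mgst2, Mgst3 and Gsr at 0.25 ± 0.20, 0.58 ± 0.47, -0.24 ± 0.25 and -0.15 ± 0.16. At an unadjusted p under 0.05, 3 of 8 convoluted tubule markers (median -0.56) and 2 of 6 endothelial markers (median -0.31) were lower here. Of 3 adipocyte markers 2 were higher (median 0.93). None of these passed adjustment, and their part in the Gpx3 difference was not tested. Over the 4 groups together edgeR's F-test called 0 members and 0 genes, DESeq2 0 members and 10 genes, and voom 0 members and 1 gene. Gpx5 was again the 1 member with an unadjusted p under 0.05 (2.44%), against 4.71% of all genes. Gpx5, Gstm3 and Gss came first, each with an adjusted p of 0.817 in edgeR.

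Other genes that supply or use glutathione were counted as 9 lists with 84 genes, of which 81 were tested. In edgeR none passed an adjusted p of 0.05 in any of the 5 comparisons. At an unadjusted p under 0.05, 5 were higher and 1 lower in CoCM than in Ctrl (7.41%, against 11.9% of all genes). In i.p. ABCB5+ 1 was higher (1.23%, against 1.77%), and in i.v. ABCB5+ 15 were higher (18.5%, against 5.78% in either direction and 4.44% higher). The last count was 1 without animal 36, 0 without animal 37 and 0 without all 4 animals, a choice added after the data were seen. In CoCM the smallest p belonged to Abcc3, which exports glutathione conjugates, at 0.35 ± 0.10 (adjusted p 0.255 in edgeR). Gstcd and the selenocysteine synthesis gene Pstk were at 0.44 ± 0.13 and 0.43 ± 0.15 (adjusted p 0.276 and 0.319 in edgeR). In i.v. ABCB5+ the 15 genes included 5 of the 11 for cysteine and precursor supply, led by Ahcy (0.86 ± 0.34, adjusted p 0.673 in edgeR), and 4 of the 9 for other glutathione breakdown, led by Oplah (0.65 ± 0.26, adjusted p 0.673 in edgeR). Summed levels of the cysteine and precursor list were 7440 and 9068 CPM in animals 36 and 37 and 1598 to 2007 CPM in the other i.v. animals. Oplah opens the 5-oxoproline formed when glutathione is degraded. Slc7a11, the cystine importer that many cells use to feed glutathione synthesis, stayed between 6.78 and 14 CPM in all animals. Slc3a1, a subunit of the brush-border cystine transporter, ranged from 180.6 to 6031 CPM and had r = 0.990 with Gclc.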

How the data were processed

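RNA of the left kidney of 24 rats was sequenced on a BGISEQ-500 instrument. The submitters' processing notes name Trim Galore 0.6.4, kallisto 0.4.6 and the build rn6. The methods of the study name a gene model package of the human build hg19, which differs from rn6 in species, and which of them served to sum transcripts to genes could not be settled. The estimated counts deposited by the authors are not normalized, and the TPM values deposited by the authors are scaled to transcript length and library total. Groups came from the labels, each library being a separate animal, and no 2 libraries of a group agreed within sampling noise (chi-square per degree of freedom at least 10.3). Symbols came from RefSeq (GRCr8), which held 17179 of 17334 identifiers. Since the build differs, only promoter sequences were taken with coordinates, which are those of GRCr8.

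Estimated counts were rounded. Genes with low counts were removed by group, libraries scaled by TMM, and all 24 samples fitted in edgeR 4.0.16 (R 4.3.3) with quasi-likelihood F-tests and Benjamini-Hochberg adjustment over all genes at 0.05. The standard error was the log2 fold change divided by the root of F. CPM used TMM-scaled library sizes. Alternatives were other size factors, no filter or another filter, fits of only the groups compared, DESeq2 1.42.0, limma 3.58.1 on log2(TPM + 1), voom with quality weights, and leaving out each animal or the 4 animals that stood apart. For each comparison, fold changes and standard errors were given of members with an adjusted p under 0.05. They were also given of the 3 members per direction with the smallest p and, in the comparisons with Ctrl, of Gclc, Gclm, Gss and Gsr. Over the 4 groups an adjusted p was given for the 3 members with the smallest p. The code was tested on simulated data. Members and lists were chosen with earlier results of these data known. Counting limits cover counting error only.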

Additional observations from a re-analysis of the deposited data

Results flagged for a closer look

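Within each group of 6, a level was singled out where its gap to the nearest animal, divided by the range of the group, exceeded 0.625. Of 164 pairs of a member and a group 16 did so. A nominal rate of about 1 in 20 groups would give about 8.2. The share of all genes singled out in this way was not counted, so an excess of members over other genes is not shown. Most of the pairs came from CoCM animal 39 and i.p. ABCB5+ animal 38. Over all genes, these animals were also the highest of their groups more often than any other animal there. CoCM animal 39 accounted for 8 of the 16 pairs. It was the highest of its group for Gsta2 (1416 CPM, others 155 to 626), Gsta5 (22.7 CPM, others 0 to 7.73), Mgst3 (208 CPM, others 107 to 135), Gstm2 (196 CPM, others 102 to 132), Gstm7 (68.6 CPM, others 19.7 to 33), Gsto1 (199 CPM, others 85.3 to 113) and Gsr (253 CPM, others 148 to 182), and the lowest for Gpx2 (7.74 CPM, others 51.5 to 75.9).

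In i.p. ABCB5+, animal 38 was singled out for 5 genes. It was highest for Ggt6 (16.8 CPM, others 5.75 to 9.87) and Gpx3 (16153 CPM, others 6142 to 9041), and lowest for Mgst2 (0.485 CPM, others 2.66 to 3.02), Gpx2 (5.21 CPM, others 46.1 to 49.7) and Gpx8 (25.7 CPM, others 36 to 41.8). Animal 41 of the same group was highest for Gstm1 (149 CPM, others 93.5 to 110). In Ctrl, animal 24 was highest for Gclc (4288 CPM, others 111 to 1544) and Gclm (821 CPM, others 115 to 321). Among the i.v. ABCB5+ animals none was singled out, as 36 and 37 lay together.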

How the results depend on the processing

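No paired analysis was possible because no animal number occurs in more than 1 group. The number of members past an adjusted p of 0.05 in CoCM against Ctrl was 0 in edgeR and 1, always Gpx5, with DESeq2 (log2 fold change 1.04, 78 genes called in all), with voom and quality weights (1.34, 183 genes) and without control 23 (1.31, 31 genes). In every other comparison it was 0 under all alternatives, leaving out single animals included. Members with an unadjusted p under 0.05 in CoCM against Ctrl numbered 2 (11.9% of all genes) in the main test, 1 with median-ratio size factors (12%) and on log2(TPM + 1) (10.3%), 6 with voom (22.2%), 5 in the fit of only the groups compared (16.0%) and 5 without the 4 animals (16.9%). In i.p. ABCB5+ against Ctrl they numbered 1 (1.77%), but 6 with voom (9.72%) and 0 without the 4 animals (1.39%). In i.v. ABCB5+ against Ctrl they numbered 8 (5.78%), but 2 on log2(TPM + 1) (3.24%), 2 with voom (6.07%), 3 in the fit of only the groups compared (3.62%) and 0 without the 4 animals (1.23%). In i.p. against i.v. ABCB5+ the 1 member (2.14%) was lost (0) with voom (6.93%), in the fit of only the groups compared (1.43%) and without the 4 animals (1.13%). CoCM against both cell groups gave 2 with DESeq2 (8.70%) and with voom (18.6%), and the 4 groups gave 3 with voom (17.7%). Leaving out 1 animal gave 1 to 9, 0 to 3, 0 to 15, 0 to 1, 1 to 2 and 1 to 2 members in this order of comparisons, and 0 to 1 called members in CoCM against Ctrl. In CoCM against Ctrl the count was 9 without control 24 (8.81% of all genes) and 5 without CoCM animal 40 (15.7%). It was 1 without CoCM animals 34, 35 or 39 or controls 1, 12 or 22 (9.44% to 11.9%). In i.p. ABCB5+ against Ctrl it was 0 without control 22 or animals 32, 38 or 41 (0.631% to 1.78%) and 3 without animal 29 (4.93%). It was 2 without controls 23 or 24 or animals 30 or 31 (1.60% to 3.51%). In i.v. ABCB5+ against Ctrl it was 15 without control 24 (9.72%) or animals 42 (8.79%) or 43 (9.24%), and 13 without animal 33 (9.28%). It was 5, 4, 2 and 1 without controls 18 (4.85%), 23 (5.04%), 1 (2.56%) and 12 (3.31%), and 0 without animals 36 (1.95%) or 37 (1.37%). In i.p. against i.v. ABCB5+ it was 0 without i.p. animals 32, 38 or 41 or i.v. animals 36, 37 or 43 (1.40% to 2.88%). In CoCM against both cell groups it was 2 without animals 40, 33 or 42 (6.59% to 8.03%). Over the 4 groups it was 2 without animals 39 or 42 or control 24 (4.27% to 6.07%).

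The median log2 fold change of the members moved by less than 1 SD of the median member level within groups (0.38) under every alternative. It nevertheless changed sign without the 4 animals in i.v. ABCB5+ against Ctrl (-0.04), in i.p. against i.v. (0.10) and in CoCM against both cell groups (0.13). Directions of single genes turned as follows. Gsr in CoCM was -0.08 on log2(TPM + 1), -0.06 with voom, -0.10 without the 4 animals, and -0.09, -0.03 and -0.01 without CoCM animal 39, control 12 and control 23, in a range from -0.09 to 0.09. Gsr in i.v. ABCB5+ was -0.03 with voom and without the 4 animals, and in i.p. ABCB5+ it was at 0 to 2 decimals (-0.00) without animal 38, in a range up to 0.17. Without the 4 animals Gclc and Gclm in i.v. ABCB5+ were -0.05 and -0.12. In i.p. against i.v., Gss and Gstz1 were 0.49 and 0.20 with voom and 0.40 and 0.07 without the 4 animals. The cause of these changes was not tested. With 6 animals per group and a within-group SD of 1.95 for Gclc, its fold changes had standard errors near 1 on the log2 scale, so differences of that size could not be told from 0. Leaving out 1 animal, Gclc against Ctrl ran from 0.90 to 2.31 in CoCM, 0.54 to 1.87 in i.p. and 1.34 to 2.89 in i.v. ABCB5+. For Gclm these ranges were 0.53 to 1.45, 0.23 to 1.10 and 0.76 to 1.80.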

Other observations

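Which animal of a group was highest was uneven over the 41 genes. In Ctrl, animal 24 was the highest of the group for 20 members (48.8%, against 23.4% of all genes), while animal 12 was the lowest for 17 (41.5%, against 16.8%). Among the i.v. ABCB5+ animals, number 37 was highest for 27 members (65.9%, against 28.4% of all genes). In CoCM, animal 39 was highest for 27 (65.9%, against 35%) and animal 40 lowest for 18 (43.9%, against 22.9%). In i.p. ABCB5+, animal 38 was highest for 24 (58.5%, against 34.7%) and animal 29 lowest for 20 (48.8%, against 20.3%).

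Some genes on the lists of other tissues followed Gclc over the 20 animals. Cidec, written as an adipocyte marker, had r = 0.971 and rho = 0.965 (adjusted p 0.000297 and 0.000274 by permutation), whereas the adipocyte genes Fabp4 and Adipoq had r = 0.274 and 0.224. Cyp21a1, written as an adrenal marker, had r = 0.873 and rho = 0.904 (adjusted p 0.000297 and 0.000274 by permutation), and Star r = -0.115. Of the 8 fibroblast genes, Postn was the most negative at r = -0.732 (adjusted p 0.00128 by permutation), and of the 11 leukocyte genes Itgam at r = -0.652 (adjusted p 0.0186 by permutation). These are the extremes of their lists and do not stand for the whole of them. Of all genes, 7.80% had a negative correlation with Gclc past the threshold.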
